A study of Mus musculus with 8 samples.

Results

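The genes encoded by mouse mitochondrial DNA were followed in 8 RNA libraries of stromal cells sorted from the small intestine of LTβRYFP mice. The members were taken by name, as the rows whose gene symbol begins with mt-, which gave 37 of 53801 genes. They comprised 13 protein-coding genes, 2 ribosomal RNA (rRNA) genes and 22 transfer RNA (tRNA) genes. All libraries came from cells negative for the haematopoietic marker CD45 and the endothelial marker CD31, and the gates differed in the YFP signal, with 4 libraries from YFP- cells and 4 from YFP+ cells. Every mouse carried the LTβRYFP marker, and the labels used here give neither the age of the mice, nor the element that drives YFP, nor whether libraries came from separate animals. P-values therefore measure only the spread between these libraries, which may be technical. The sample titles carry the opposite YFP sign to the descriptions and genotypes in 8 of 8 samples. Groups follow the descriptions, and every direction would be the reverse if the titles held.

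Mitochondrial DNA is a compact circle that is copied along almost its whole length from both strands into long RNAs. Enzymes cut these RNAs mostly at the tRNAs, which sit between the other genes like punctuation, and release rRNAs for the mitochondrial ribosome, mRNAs for subunits of the respiratory chain and ATP synthase, and the tRNAs that the ribosome needs. All proteins that copy, cut, modify and translate these RNAs come from nuclear genes. In the annotation, 28 members lie on the plus strand (2 rRNA, 12 protein-coding and 14 tRNA genes) and 9 on the minus strand. mt-Nd6, a subunit of complex I (the entry enzyme of the respiratory chain), is the 1 protein-coding gene among those 9, beside 8 tRNA genes.

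Total counts ran from 23272858 to 28688906 in YFP- libraries and from 23404630 to 29829232 in YFP+ libraries. Levels are given as CPM, counts per 1000000 of the TMM-scaled library total, and a gene was called where edgeR's quasi-likelihood test, adjusted by Benjamini-Hochberg over all 16354 tested genes, gave a p under the threshold of 0.05. The label of the cells was checked against markers. Summed stromal markers (7 genes, collagens and Pdgfra among them) stood at 39343 to 46451 CPM in YFP- against 34145 to 37943 CPM in YFP+. Endothelial markers (6 genes) summed to 59.0 to 88.8 CPM in YFP- against 37.8 to 50.4 CPM in YFP+. Most of this was Tek, at 37.3 to 61.0 CPM in YFP- against 21.8 to 33.0 CPM in YFP+. Pecam1, which encodes CD31, was at 5.11 to 11.8 CPM in YFP- against 2.63 to 7.07 CPM in YFP+. Haematopoietic markers (8 genes) summed to 72.03 to 275 CPM in YFP- against 38.5 to 319 CPM in YFP+, with Ptprc, which encodes CD45, at 0.53 to 6.22 CPM. Igha alone was at 51.7 to 212 CPM in YFP- against 21.2 to 249 CPM in YFP+. Itgam has 2 rows in the table, which held 1 count between them in all libraries.

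The tRNAs with the most counts in the class are shown first, because tRNAs mark the cutting points and held few of the counts. Sequences are those of GENCODE release M21 transcripts on GRCm38, 5′ to 3′, with the anticodon in capitals. mt-Tv, the valine tRNA between both rRNA genes, lies at chrM:1025-1093 on the plus strand. mt-Tp, the proline tRNA, lies at chrM:15356-15422 on the minus strand, and mt-Tm, the methionine tRNA before mt-Nd2, at chrM:3845-3913 on the plus strand.
mt-Tv: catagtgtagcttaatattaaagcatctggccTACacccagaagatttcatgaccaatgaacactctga
mt-Tp: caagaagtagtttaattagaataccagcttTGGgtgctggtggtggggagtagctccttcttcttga
mt-Tm: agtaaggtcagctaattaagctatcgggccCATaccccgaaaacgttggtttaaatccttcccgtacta

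A second set of sequences shows which members have a near-identical copy in the nucleus. Nuclear DNA of the mouse holds pieces copied from the mitochondrial genome. Of the annotated nuclear transcripts, 7 pseudogenes matched a member over at least 100 bases at 99% identity or more. All 7 lie on the minus strand of chromosome 1 between 24611535 and 24616197, in the same order as the mitochondrial genes from mt-Co1 to mt-Nd4, and their positions are colinear with the mitochondrial ones to within 1 base. The start of mt-Co2, a subunit of cytochrome c oxidase (chrM:7013-7053, plus strand), is letter for letter that of Gm28661 (chr1:24615525-24615565, minus strand).
mt-Co2: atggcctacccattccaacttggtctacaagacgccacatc
Gm28661: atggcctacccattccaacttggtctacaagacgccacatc

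Over 681 of the 684 bases of mt-Co2 the copy was 100% identical. Across the 345 matched bases of mt-Nd3, a complex I subunit, the copy Gm28438 had 1 mismatch, T3C, with positions counted from 1 at the first base of the mitochondrial transcript. In the last 483 bases of mt-Co1, the catalytic subunit of cytochrome c oxidase, the copy Gm29216 also had 1 mismatch, A1066T. The bases around each are shown with the differing base in capitals, from chrM:9459-9481 and chrM:6390-6413 on the plus strand and from chr1:24613097-24613119 and chr1:24616165-24616188 on the minus strand.
mt-Nd3: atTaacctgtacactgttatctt
Gm28438: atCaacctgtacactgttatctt
mt-Co1: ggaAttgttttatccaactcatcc
Gm29216: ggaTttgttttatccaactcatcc

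Counts along the mitochondrial genome had a gap that coincided with this stretch. From mt-Ts1 to mt-Nd4l (6870 to 10173), 9 of 11 genes were listed at 0 in every library, and the 11 genes held 18 counts over the 8 libraries together. The genes at 0 were mt-Co2 and mt-Co3 of cytochrome c oxidase, mt-Atp8 and mt-Atp6 of ATP synthase, mt-Nd4l of complex I, and the tRNAs mt-Ts1, mt-Td, mt-Tk and mt-Tg. mt-Nd3 had 0 to 3 counts per library, and mt-Tr, the arginine tRNA, 0 to 5. Of the 26 genes outside the gap, 1 was at 0 everywhere, the histidine tRNA mt-Th. A count of 0 allows up to 3 counts, or 0.0983 to 0.133 CPM depending on the library, which covers counting error only.

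The copies themselves had few counts, 25 over the 7 pseudogenes and all libraries together. Gm29216 had 13 of them and Gm10925, the copy of mt-Atp6, had 8. At 90% to 99% identity, at least 9 further annotated copies matched members, among them mt-Co1, mt-Nd2, mt-Nd5, mt-Nd6 and mt-Cytb. The most counts of these 9 were in Gm13340, 97.6% identical over 1545 bases of mt-Co1, with 106 in all libraries together. mt-Atp8 gave no match at 99% identity over 100 bases, although it shares its end with mt-Atp6. The tRNAs in the gap are shorter than the 100 bases a match needed, so the search could not find a copy of them. How reads that map to several places were treated is not given in the sources used here, so whether the copies account for the gap was not tested. The genes at 0 are therefore listed here without a level, and nothing is compared for them.

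**Figure D1:**
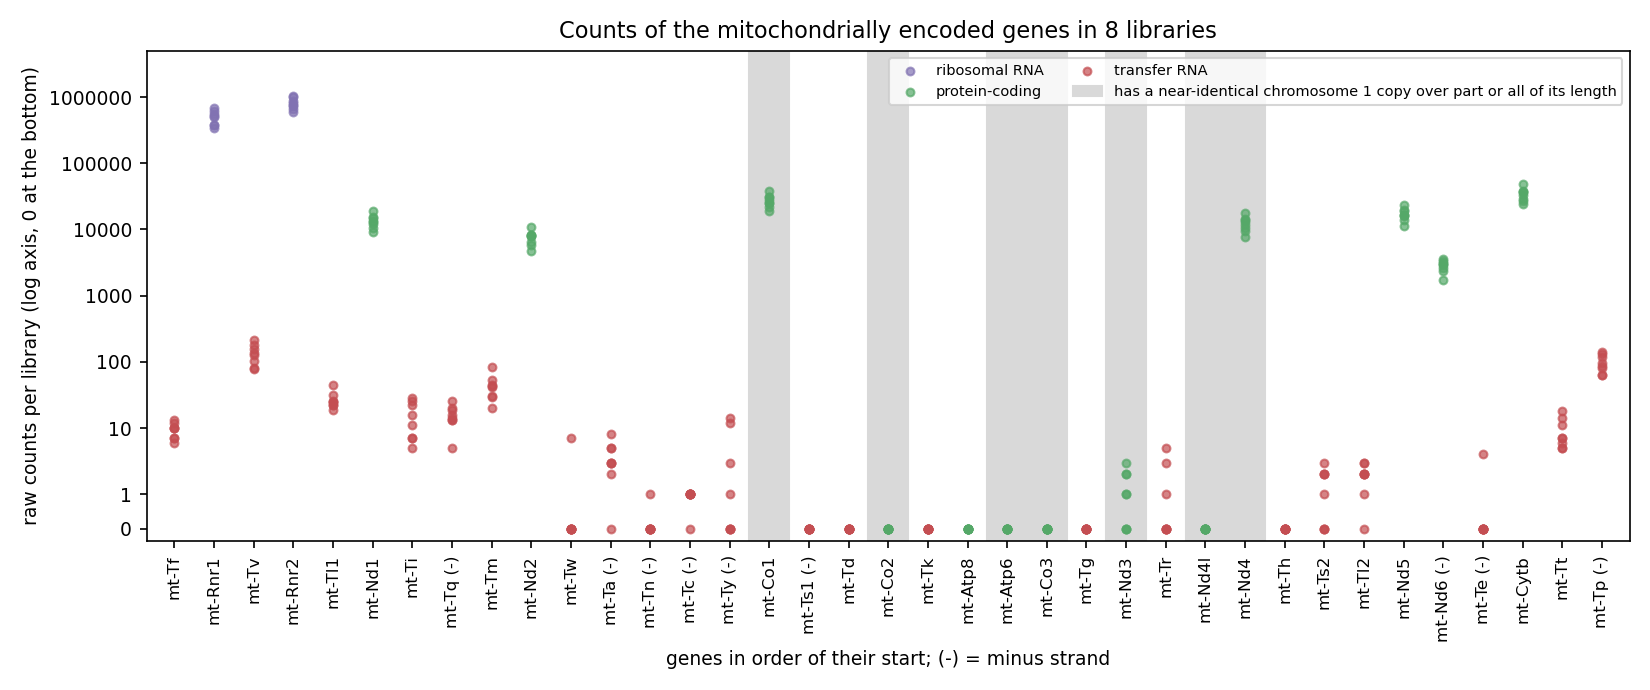
Raw counts per library (log axis, 0 at the bottom) of the 37 mitochondrial genes in the order of their start, coloured by class, 1 point for each of 8 libraries, with genes that have a near-identical chromosome 1 copy shaded. Ribosomal RNAs stood at the top, and the 11 genes from mt-Ts1 to mt-Nd4l held 18 counts in all. mt-Co1 and mt-Nd4, shaded but copied over only part of their length, kept 18837 to 38032 and 7615 to 17436 counts.

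After the filter on low counts, 16 members entered the test: both rRNAs, 7 protein-coding genes and 7 tRNAs. The 21 others were the 10 genes at 0 everywhere, mt-Nd3 and 10 tRNAs. Of those 10 tRNAs, mt-Tt for threonine had the most counts, 5 to 18 per library. mt-Ty, the tyrosine tRNA, was uneven, with 1, 0, 0 and 0 counts in YFP- against 0, 12, 14 and 3 in YFP+. The authors' deposited table gave mt-Ty a log2 fold change of 4.12 at an unadjusted p of 0.0385 and no adjusted p.

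Ribosomal RNA made up most of the mitochondrial counts in both gates. It held 91.5% to 92.8% of mitochondrial counts per YFP- library and 91.7% to 92.7% per YFP+ library. Protein-coding genes held 7.22% to 8.48% and 7.27% to 8.27%, and tRNAs 0.0167% to 0.0306% and 0.0156% to 0.0432%. Of the 13 protein-coding genes 5 were at 0 everywhere and mt-Nd3 was near it. The protein-coding shares and ratios here and below therefore rest on the 7 tested genes, not on the whole class. In counts, all 22 tRNA genes together had 371, 392, 356 and 315 in YFP- libraries 1 to 4 and 232, 447, 226 and 587 in YFP+ libraries 1 to 4. The 354 nuclear genes annotated as rRNA held 0.0147% to 0.0342% of a library's counts. How reads mapping to several places were counted is not given, so this does not measure the nuclear rRNA in the cells.

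As a share of the whole library, the mitochondrial rRNAs and mRNAs were lower in every YFP+ library than in every YFP- library. Mitochondrial rRNA held 4.76%, 6.84%, 6.08% and 6.03% of counts in YFP- libraries 1 to 4 and 3.79%, 4.202%, 4.47% and 4.36% in YFP+ libraries 1 to 4. YFP- 1 was the lowest of its group and still above all YFP+ libraries. Mitochondrial protein-coding genes held 0.437%, 0.533%, 0.546% and 0.559% in YFP- against 0.342%, 0.330%, 0.396% and 0.381% in YFP+, again without overlap. The YFP+ mean was 0.709 of the YFP- mean for rRNA and 0.698 for protein-coding genes. For each, the exact two-sided permutation test over 70 splits gave p = 0.0286, the smallest it can give. After Benjamini-Hochberg adjustment over the 8 share values tested, this permutation p was 0.0571, so neither passed. A value at the smallest p could not pass this adjustment on its own, however far apart the groups were. With the 5 tested protein-coding genes that have no near-identical nuclear copy, the share was 0.338% ± 0.0356 in YFP- against 0.238% ± 0.0210 in YFP+ (SD, n = 4 each, exact permutation p = 0.0286, adjusted 0.0571). mt-Atp8, at 0 in every library, also had no such copy and added nothing to this share. Each of the 4 same-numbered pairs had all 3 shares lower in YFP+, where an exact sign-flip test cannot go below p = 0.125.

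The tRNA share showed no such order. It was 0.00159%, 0.00164%, 0.00150% and 0.00110% of library counts in YFP- against 0.000876%, 0.00191%, 0.000758% and 0.00205% in YFP+. YFP+ libraries 2 and 4 were the highest of all 8 and YFP+ libraries 1 and 3 the lowest, so the groups overlapped (exact permutation p = 0.914, adjusted 0.914). In bulk samples such as these, fewer cells of a type and less RNA per cell cannot be told apart.

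**Figure D2:**
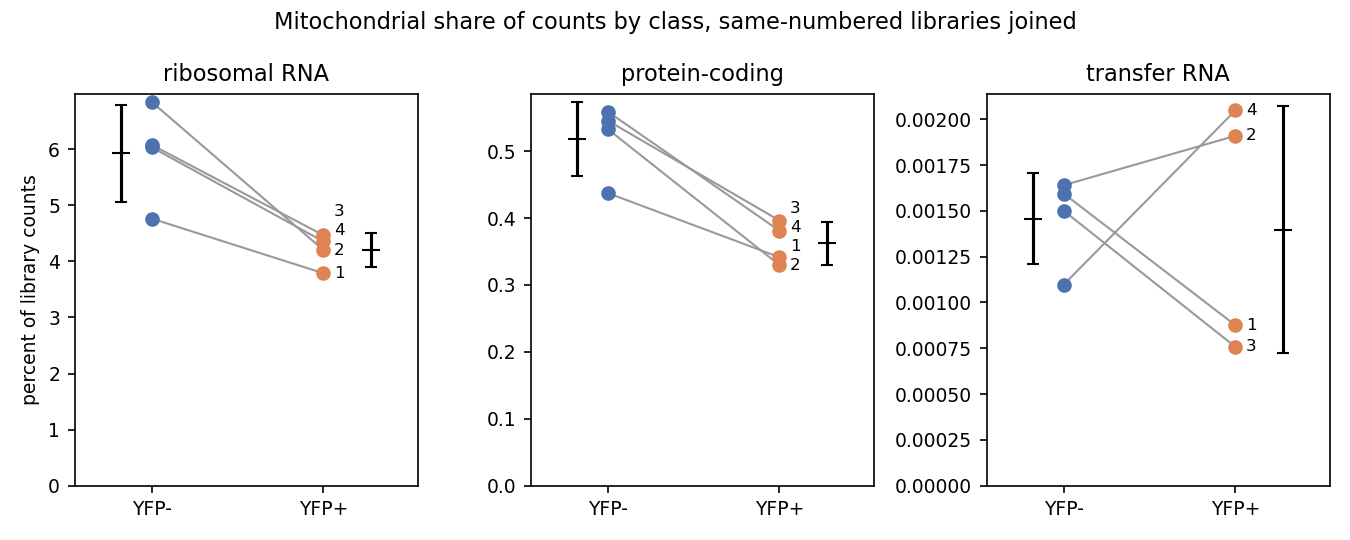
Percent of library counts in mitochondrial ribosomal RNA, protein-coding and transfer RNA genes (each axis starts at 0, and the scales differ), with same-numbered libraries joined, replicate numbers beside the YFP+ points, and mean ± SD (n = 4) beside each group. All lines fall from YFP- to YFP+ for ribosomal RNA and protein-coding genes, while for transfer RNA 2 of 4 fall.

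Gene by gene, all 9 tested rRNA and protein-coding members were called lower in YFP+, where 3.34% of all tested genes were called lower (547 of 16354) and 0.917% higher. In either direction 4.26% of genes were called. Their log2 fold changes ran from -0.64 to -0.51 with a median of -0.59, against a median of 0.00323 over all tested genes. In 8 of the 9 every YFP+ library lay under every YFP- library, which held for 5.86% of all tested genes. The exception was mt-Rnr1.

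mt-Rnr2, the rRNA of the large mitochondrial ribosomal subunit (chrM:1094-2675), was the most abundant member. Its level was 32472, 42519, 38083 and 38033 CPM in YFP- libraries 1 to 4 and 24573, 24714, 26723 and 26177 CPM in YFP+ libraries 1 to 4. YFP+ libraries lay close together and under all YFP- libraries, and the log2 fold change was -0.56 (SE 0.09, edgeR adjusted p = 0.00142). mt-Rnr1, the rRNA of the small subunit (chrM:70-1024), had 16523, 25944, 24172 and 24753 CPM in YFP- against 12803, 15734, 16923 and 17068 CPM in YFP+. YFP- 1 fell below YFP+ 3 and YFP+ 4, so the groups overlapped. The log2 fold change was -0.55 (SE 0.14, edgeR adjusted p = 0.0351). The mt-Rnr1 call rested on most libraries: it was lost when any library except YFP- 1 was left out, with edgeR adjusted p from 0.0540 to 0.120.

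Among the 5 complex I members tested, mt-Nd5 (chrM:11742-13565) had the smallest adjusted p. It stood at 722, 824, 817 and 858 CPM in YFP- against 515, 461, 549 and 544 CPM in YFP+, with every YFP+ value lower (log2 fold change -0.64, SE 0.09, edgeR adjusted p = 3.15e-04). mt-Nd1 (chrM:2751-3707) was at 530, 630, 659 and 692 CPM in YFP- against 390, 371, 437 and 445 CPM in YFP+. The groups were again apart, and mt-Nd1 changed by -0.61 on the log2 scale (SE 0.10, edgeR adjusted p = 0.00106). mt-Nd4 (chrM:10167-11544), whose first 876 of 1378 bases have an identical chromosome 1 copy, was at 464, 572, 625 and 632 CPM in YFP- against 351, 313, 421 and 406 CPM in YFP+. Its groups did not overlap, and its log2 fold change was -0.62 (SE 0.11, edgeR adjusted p = 0.00393).

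mt-Nd2 (chrM:3914-4951) had the smallest change of the 9. Its level was 289, 328, 350 and 392 CPM in YFP- against 218, 192, 266 and 276 CPM in YFP+. YFP- 1 was only slightly above YFP+ 4, and the log2 fold change was -0.51 (SE 0.12, edgeR adjusted p = 0.0236). That call was lost without YFP- 2, YFP- 3, YFP- 4, YFP+ 1 or YFP+ 2, with edgeR adjusted p from 0.0504 to 0.0867. mt-Nd6 (chrM:13552-14070, minus strand) was at 132, 138, 133 and 128 CPM in YFP- against 87.7, 69.99, 95.7 and 89.4 CPM in YFP+. Its YFP- libraries were, relative to their mean, tighter than those of any other tested member, all YFP+ values were lower, and the log2 fold change was -0.63 (SE 0.09, edgeR adjusted p = 6.56e-04). mt-Nd5 and mt-Nd6 overlap in the annotation on opposite strands at their ends, and the strand setting of the counting is not given in the sources used here.

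Outside complex I, mt-Co1 (chrM:5328-6872) stood at 1097, 1291, 1356 and 1379 CPM in YFP- against 821, 775, 919 and 879 CPM in YFP+. The groups did not overlap (log2 fold change -0.59, SE 0.09, edgeR adjusted p = 9.09e-04). mt-Cytb, the cytochrome b of complex III (chrM:14145-15288), was at 1264, 1550, 1651 and 1737 CPM in YFP- against 986, 992, 1185 and 1145 CPM in YFP+. All YFP+ libraries were again lower (log2 fold change -0.53, SE 0.10, edgeR adjusted p = 0.00637).

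Markers of other cells moved with the gate. The lists were chosen with earlier results of these data known, so their counts of calls are not an independent check. Over all tested genes, 3.34% were called lower and 0.917% higher without a block. With the replicate number as a block, 7.85% of all tested genes were called lower and 3.65% higher. Enteric glia markers summed to 128 to 213 CPM in YFP- against 7.30 to 9.53 CPM in YFP+, and 8 of 8 were called lower with or without the block, among them Sox10 at 13.9 ± 3.25 and 2.76 ± 0.645 CPM (SD, n = 4 each). Epithelial markers summed to 41.2 to 82.7 CPM in YFP- against 19.7 to 28.0 CPM in YFP+, with 4 of 10 called lower and 5 of 10 with the block. Of the 6 endothelial markers 1 was called lower, and 3 with the block. Of the 7 stromal markers 2 were called lower, and with the block 5 lower and 1 higher. Of the 5 tested haematopoietic markers 0 were called in edgeR with or without the block, and 0 had an unadjusted p under 0.05 without it. Smooth muscle and myofibroblast markers went the other way, from 175 to 448 CPM in YFP- against 336 to 841 CPM in YFP+, with 1 of 7 called higher and 6 of 7 with the block. Markers of interstitial cells of Cajal (3 tested), neurons (3) and mesothelium (1) gave 0 calls in edgeR without the block. At an unadjusted edgeR p under 0.05 were 3 of the 7, Kit and Uchl1 lower and Etv1 higher. With the block, Etv1 of the first list was called higher (log2 fold change 0.32). Its other members went the other way without a call, Kit at -1.52 and Ano1 at -0.50. Uchl1 of the second list was called lower with the block. Early response genes, which rise when cells are handled, summed to 10247 to 12253 CPM in YFP- against 7899 to 8484 CPM in YFP+, with 7 of 12 called lower and 12 of 12 with the block. Their part in the mitochondrial result was not tested.

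Levels between genes were compared per length, as the CPM of the whole gene divided by its kilobases outside the near-identical copies. For mt-Co1 and mt-Nd4 this takes every counted read to lie outside the copied stretch, which was not tested. The rRNAs stood at 23925 ± 4482 for mt-Rnr1 and 23879 ± 2601 for mt-Rnr2 in YFP- (SD, n = 4), and at 16368 ± 2072 and 16148 ± 675 in YFP+. mt-Rnr1 was above mt-Rnr2 in 6 of 8 libraries, so their order was not stable. The mRNAs were far below, in the order mt-Cytb, mt-Co1, mt-Nd4, mt-Nd1, mt-Nd5, mt-Nd2 and mt-Nd6, and this order held between each pair of neighbours in 8 of 8 libraries.

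In YFP-, mt-Cytb was at 1355 ± 180 CPM per kilobase, mt-Co1 at 1206 ± 120 and mt-Nd4 at 1142 ± 154, so mt-Co1 and mt-Nd4 differed by less than either SD, while the gap between mt-Cytb and mt-Co1 was smaller than the SD of mt-Cytb and larger than that of mt-Co1. mt-Nd1 followed at 656 ± 72.7, mt-Nd5 at 441 ± 31.8, mt-Nd2 at 327 ± 41.3 and mt-Nd6 at 255 ± 8.04. In YFP+ the same genes stood at 941 ± 89.9, 799 ± 59.7, 743 ± 99.2, 429 ± 37.7, 284 ± 22.1, 229 ± 38.2 and 165 ± 21.3. The gap between mt-Cytb and mt-Co1 was there larger than either SD, and that between mt-Co1 and mt-Nd4 was not. On the full annotated length, the YFP- mean of mt-Nd4 was 416 and that of mt-Co1 829, which puts mt-Nd4 below mt-Nd5. The place of mt-Nd4 in the order thus depends on how the copied stretch is treated.

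**Figure D3:**
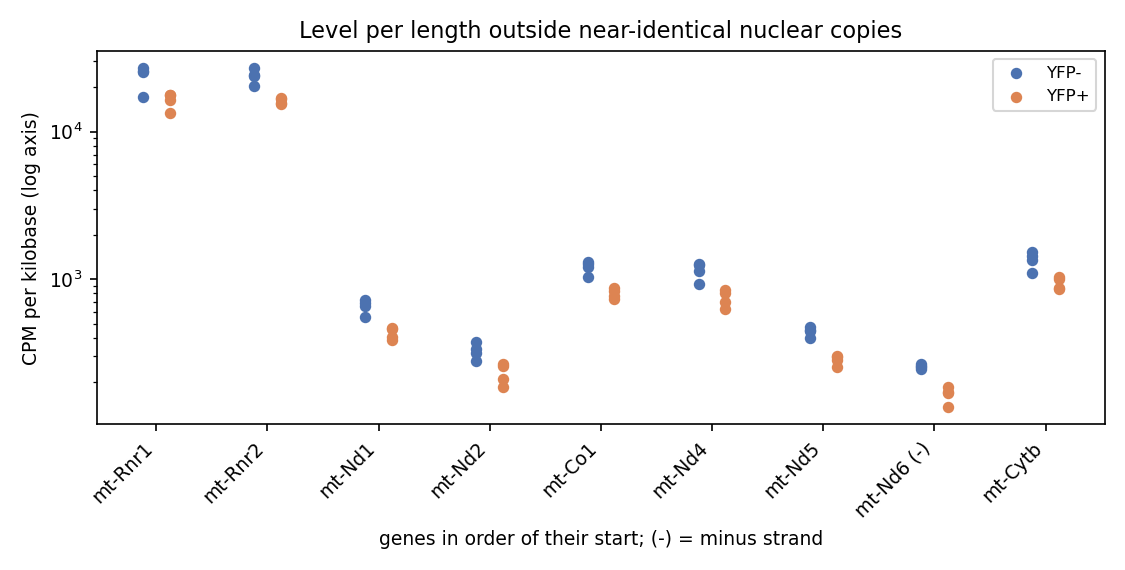
Level per length (CPM of the whole gene per kilobase outside near-identical copies, log axis) of the 9 tested rRNA and protein-coding genes, in the order of their start, 1 point per library. The rRNAs lie at 13406 to 27166 and the mRNAs at 135 to 1518 CPM per kilobase, and the YFP+ points lie lower in each gene except mt-Rnr1, where the groups overlap.

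Within same-numbered pairs the fall was found in every pair, but its size differed. All 9 genes were lower in YFP+ in 4 of 4 pairs, which held for 16.2% of all tested genes. The median log2 ratio of the 9 was -0.40 in pair 1, -0.77 in pair 2, -0.51 in pair 3 and -0.60 in pair 4. Pair 2 had the largest fall in each of the 9 genes, from -0.98 for mt-Nd6 to -0.64 for mt-Cytb. Pair 1 ran from -0.59 for mt-Nd6 to -0.36 for mt-Cytb, pair 3 from -0.59 for mt-Nd1 to -0.39 for mt-Nd2, and pair 4 from -0.66 for mt-Nd5 to -0.51 for mt-Nd2. Genes of 1 library share that library, so the agreement of the 9 within a pair is not 9 separate measurements.

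With the replicate number as a block, all 9 were called lower again, and the SE shrank to 0.05 to 0.07. The log2 fold changes were -0.64 to -0.52, with the largest edgeR adjusted p being 8.93e-07. In that fit 7.85% of all tested genes were called lower, 3.65% higher and 11.5% in either direction. The edgeR adjusted p of mt-Rnr1 went from 0.0351 without the block to 1.66e-08 with it, and that of mt-Nd2 from 0.0236 to 7.89e-07. With the block, none of the 9 calls was lost when both libraries of any 1 number were left out. In the authors' deposited table the same 9 genes had log2 fold changes from -0.63 to -0.51, and their largest adjusted p was 7.98e-04, that of mt-Rnr1.

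The tested tRNAs gave no call in either direction without or with the block, where 4.26% and 11.5% of all tested genes were called. These tRNAs were mt-Tf, mt-Tv, mt-Tl1, mt-Ti, mt-Tq, mt-Tm and mt-Tp, which carry phenylalanine, valine, leucine, isoleucine, glutamine, methionine and proline. Of the 7, 0 had an unadjusted p under 0.05 in edgeR, and DESeq2 and limma-voom also called 0. Estimates ran from -0.65 for mt-Ti to -0.07 for mt-Tl1 with a median of -0.15, and their SE ran from 0.33 to 0.67, in each of the 7 larger than the estimate. The edgeR adjusted p ran from 0.714 to 0.969. Whether the tRNAs changed differently from the other classes was not tested.

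mt-Tv had the most counts of the tRNAs, at 6.85, 5.70, 5.53 and 3.77 CPM in YFP- against 2.98, 7.32, 2.59 and 7.45 CPM in YFP+. mt-Tp was at 3.85, 5.49, 4.15 and 2.90 CPM in YFP- against 2.35, 4.93, 2.06 and 4.82 CPM in YFP+. In both, YFP+ libraries 2 and 4 were well above YFP+ libraries 1 and 3, and the YFP- values lay within or close to that range, so the groups overlapped. mt-Tm was at 1.86, 1.88, 2.29 and 1.12 CPM in YFP- against 1.08, 1.77, 0.655 and 2.95 CPM in YFP+, where YFP+ 4 was the highest and YFP+ 3 the lowest of all 8.

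The other 4 had fewer counts, from 5 to 45 per library. mt-Tl1 was at 1.10, 1.05, 0.950 and 1.16 CPM in YFP- against 0.708, 1.07, 0.721 and 1.56 CPM in YFP+. mt-Tf was at 0.302 to 0.442 CPM in YFP- against 0.223 to 0.493 CPM in YFP+. mt-Ti ran from 0.309 to 1.12 CPM in YFP- against 0.186 to 0.970 CPM in YFP+, and mt-Tq, on the minus strand, from 0.544 to 0.840 and from 0.164 to 0.901 CPM. All of these overlapped between the gates. mt-Ti overlaps mt-Nd1 and mt-Tq by a few bases in the annotation, so the counts of mt-Ti and mt-Tq are uncertain to that extent. Other tRNA genes directly adjoin a neighbour: mt-Tv both rRNA genes, mt-Tl1 mt-Rnr2 and mt-Nd1, mt-Tm mt-Nd2, and mt-Tp mt-Tt. Counts of a tRNA gene do not tell cut tRNA from uncut RNA that spans it, and this was not tested. By pair, 7 of the 7 tRNAs were lower in YFP+ in pairs 1 and 3, 3 were lower in pair 2, and 0 were lower in pair 4.

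**Figure D4:**
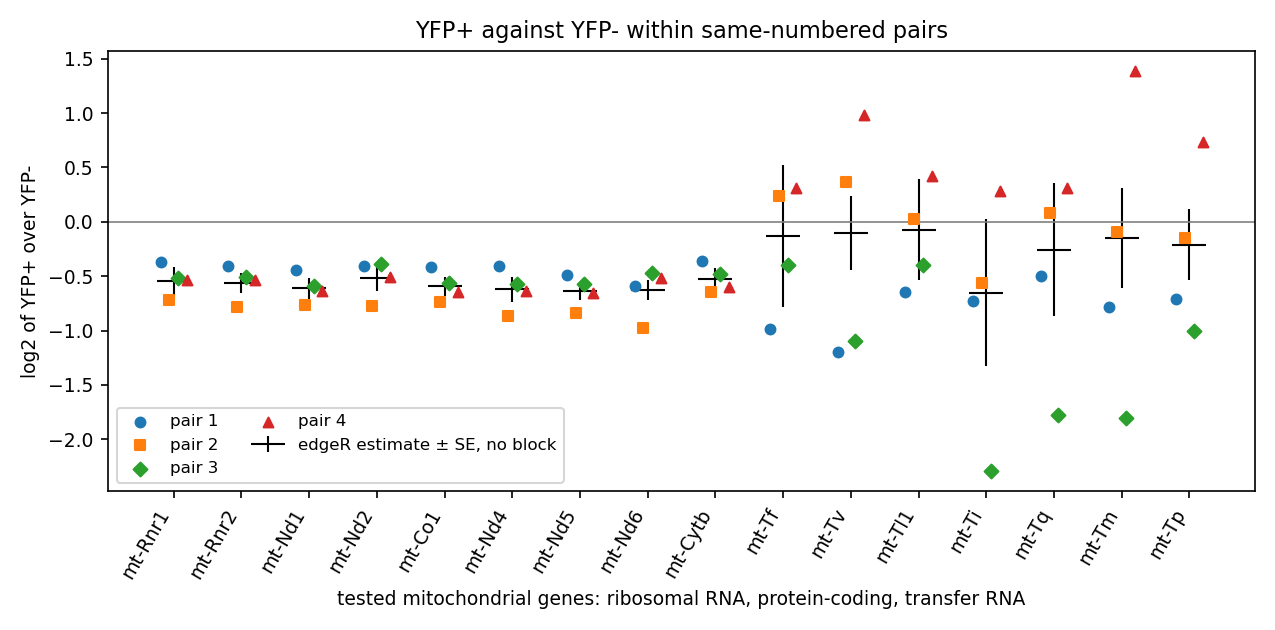
Log2 of YFP+ over YFP- in each same-numbered pair (coloured symbols) and the edgeR estimate ± SE without the block (black) for the 16 tested mitochondrial genes. The 9 rRNA and protein-coding genes lie between -0.98 and -0.36 in all pairs, and the 7 tRNAs spread from -2.29 to 1.39, with pair 4 above 0 in all 7.

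The balance inside the mitochondrial RNA was set against the gate. Counts from genes annotated on the minus strand made up 0.256%, 0.195%, 0.203% and 0.191% of mitochondrial counts in YFP- against 0.223%, 0.175%, 0.207% and 0.203% in YFP+. The groups overlapped (exact permutation p = 0.657, adjusted 0.751). mt-Nd6 gave 91.6% to 97.2% of these minus-strand counts, so the value is mainly a ratio of mt-Nd6 to the rRNAs. Of protein-coding mitochondrial counts, mt-Nd6 held 2.19% to 2.94% in YFP- against 2.20% to 2.60% in YFP+.

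The ratio of rRNA to protein-coding counts was 10.9, 12.8, 11.1 and 10.8 in YFP- against 11.1, 12.7, 11.3 and 11.4 in YFP+ (exact permutation p = 0.543, adjusted 0.751). Both libraries with the number 2 were high. The ratio of mt-Rnr2 to mt-Rnr1 counts was 1.97, 1.64, 1.58 and 1.54 in YFP- against 1.92, 1.57, 1.58 and 1.53 in YFP+ (exact permutation p = 0.6, adjusted 0.751). Here both libraries with the number 1 stood above the rest. The largest gap between libraries of the same number was 0.0681 for this ratio, against a range of 0.431 over the 8 libraries. For the rRNA to protein-coding ratio the largest such gap was 0.635 and the range 2.05. For that ratio the closeness within numbers rests on number 2. Among numbers 1, 3 and 4 it was higher in YFP+ in each pair, and number 4 spanned their whole range. No label says what a number shares.

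**Figure D5:**
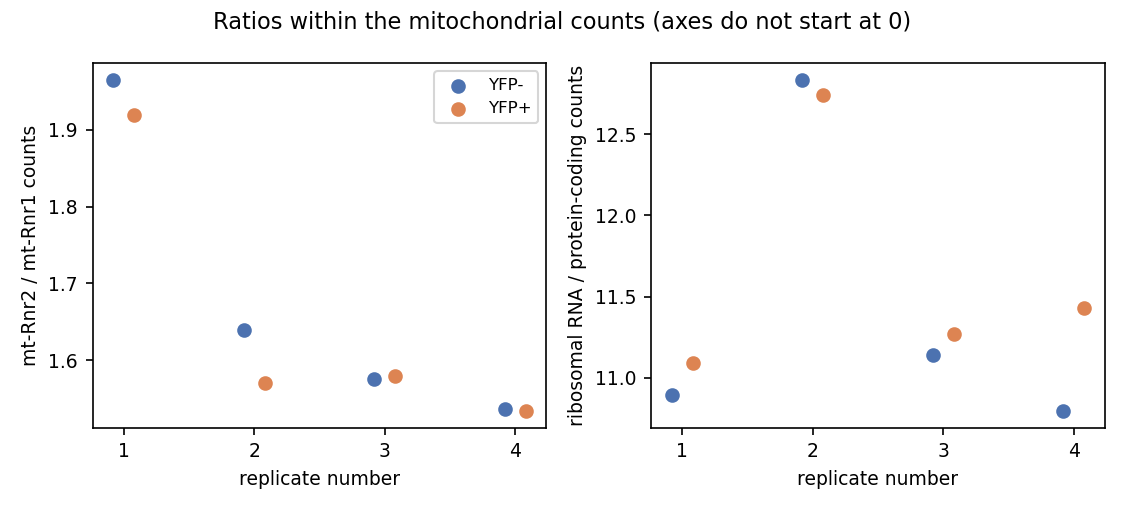
Ratio of mt-Rnr2 to mt-Rnr1 counts (left) and of mitochondrial rRNA to protein-coding counts (right) by replicate number, 1 point per library, on axes that do not start at 0. The libraries numbered 1 stand at 1.97 and 1.92 on the left and those numbered 2 at 12.8 and 12.7 on the right, whichever the gate.

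Each tested protein-coding member held a similar part of the mitochondrial mRNA counts in both gates, with small differences. mt-Cytb held 28.1% to 29.9% of protein-coding mitochondrial counts in YFP- against 29.3% to 31.3% in YFP+. mt-Co1 held 23.7% to 24.4% and 23.2% to 24.4%, and mt-Nd5 14.6% to 16.1% and 14.2% to 15.3%. mt-Nd1 was the exception to overlap, at 11.78% to 11.89% in YFP- against 11.29% to 11.76% in YFP+. In every same-numbered pair the parts of mt-Nd1 and mt-Nd5 were lower and that of mt-Cytb higher in YFP+. Those of mt-Nd2, mt-Co1, mt-Nd4 and mt-Nd6 went both ways. These differences in part were not tested. Differences between members in the size of the fall were not tested either.

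The nuclear genes that make and use mitochondrial RNA gave no call in either direction without the block. Over 7 lists (mtDNA replication, transcription, RNA cleavage and modification, RNA stability and decay, tRNA synthetases, translation factors and mitochondrial ribosomal proteins), 179 genes were tested and edgeR called 0. Of all tested genes, edgeR without the block called 4.26% in either direction. At an unadjusted p under 0.05 there were 12 of the 179, for which no share over all genes was counted. DESeq2 and limma-voom without the block also called 0 of them. Over all genes DESeq2 called 830 lower and 279 higher, and limma-voom 522 and 143. The median log2 fold change of the 179 genes was 0.12, against 0.00323 over all tested genes, with a range from -0.77 to 1.02. By list the median was 0.01 for 15 replication genes, 0.24 for 11 transcription genes, 0.09 for 26 cleavage and modification genes, 0.14 for 18 stability and decay genes, 0.11 for 22 tRNA synthetases, 0.15 for 14 translation factors and 0.15 for 75 ribosomal proteins.

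Tfam, which packages mitochondrial DNA and starts its transcription, was at 17.6 ± 1.13 CPM in YFP- against 17.5 ± 1.70 CPM in YFP+ (SD, n = 4 each, edgeR adjusted p = 0.988). Polg, the catalytic subunit of the mitochondrial DNA polymerase, was at 59.4 ± 8.44 and 60.01 ± 3.76 CPM (edgeR adjusted p = 0.972). Lrpprc, which stabilises mitochondrial mRNAs, was at 38.5 ± 3.15 and 38.6 ± 3.89 CPM (edgeR adjusted p = 0.999). The difference in these 3 genes was smaller than the SD over libraries.

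The other most abundant genes of the lists were as follows. Nsun2, an RNA cytosine methyltransferase that also acts on mitochondrial tRNAs, was at 47.8 ± 2.98 CPM in YFP- against 52.9 ± 4.30 CPM in YFP+ (SD, n = 4 each, edgeR adjusted p = 0.487). Gfm2, which acts in ribosome recycling, was at 24.8 ± 0.786 and 26.7 ± 3.13 CPM (edgeR adjusted p = 0.712). Lars2, the mitochondrial leucyl-tRNA synthetase, spread widely, at 342, 185, 183 and 180 CPM in YFP- against 215, 240, 203 and 307 CPM in YFP+ (edgeR adjusted p = 0.882).

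With the block, 5 of the 179 genes were called, 2.79% against 11.5% of all tested genes. Lower in YFP+ were Polg2, the accessory subunit of the polymerase (log2 fold change -0.36), the ribosomal proteins Mrps6 (-0.43) and Mrps28 (-0.37), and Pde12 (-0.41), which trims poly(A) tails, with edgeR adjusted p from 0.00424 to 0.0225. The ribosomal protein Mrpl36 was higher (0.62, edgeR adjusted p = 0.0488). Mrps28, the most abundant ribosomal protein gene of the list, was at 37.4 ± 5.83 CPM in YFP- against 28.7 ± 2.04 CPM in YFP+ (SD, n = 4 each, edgeR adjusted p = 0.0831 without the block).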

How the data were processed

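Library preparation used a stranded kit for small amounts of total RNA, with Illumina NextSeq sequencing, per the labels' protocols. The submitters' processing notes list cutadapt 3.4, STAR 2.7.3a, featureCounts 2.0.1, DESeq2 and the GRCm38 build. For the strand setting and for multiply mapped reads, nothing is given in the sources used here. Raw counts per gene were deposited by the authors, beside log2 fold changes and p-values of their own comparison. The table's 8 normalised columns were not used. A DESeq2 model of number and group returned the authors' deposited log2 fold changes to within 5e-04.

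Members and lists were chosen with earlier results of these data known. Counts were tested in R 4.3.3 with edgeR 4.0.16 (filterByExpr, TMM, robust quasi-likelihood F test without a block, Benjamini-Hochberg over 16354 genes, threshold 0.05). DESeq2 1.42.0 and limma 3.58.1 (voom) were alternatives, beside other scalings and filters, the replicate block and each library left out in turn. DESeq2 with the block, the block with nuclear scaling, and the block without both libraries of a number were added after seeing the data. The SE is the absolute log2 fold change divided by the square root of F. The test was tried on simulated data. Named genes were all members by class and, from each machinery list, called genes and the most abundant gene. Genes called with the block and the marker examples were named after their values were seen, and so was mt-Ty.

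Same-numbered libraries deviated together from their group means, with correlations across 5191 nuclear genes of 0.601, 0.637, 0.381 and 0.574, while other combinations of numbers gave -0.424 to 0.0532. Pair ratios, the sign-flip test and the replicate block used the number. The edgeR fit without the block and the permutation test did not. No library was a repeat of another within sampling noise (smallest chi-square per degree of freedom 18.8). Class shares were tested by exact permutation over 70 splits. Nuclear copies were found with blastn 2.17.0 (at least 99% identity over 100 bases) among the transcripts of GENCODE M21, which held 53706 of the 53801 gene identifiers. Copies without an annotated transcript, and of genes under that length, were not looked for.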

Additional observations from a re-analysis of the deposited data

Results flagged for a closer look

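In groups of 4 libraries, 5 of 64 sets of values had 1 library far from the other 3, where chance gives about 3.2 (1 in 20). In the ratio of mitochondrial rRNA to protein-coding counts, YFP- 2 stood apart at 12.8. In the ratio of mt-Rnr2 to mt-Rnr1 counts, YFP+ 1 stood apart at 1.92. The total of YFP- 4 was high within its group, at 28688906 counts. YFP- 1 was high in Lars2, at 342 CPM, and in Gfm2, at 26.0 CPM.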

How the results depend on the processing

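The 9 called rRNA and protein-coding members were recomputed under 22 alternatives each. All 198 log2 fold changes were negative, from -0.70 to -0.42, and 186 kept their call. The 12 that lost it were mt-Rnr1 and mt-Nd2 with 1 library left out. No tested tRNA was called under any alternative. The block changed no call of a member. Over the scalings tried, the median of all genes stayed within 0.1 of 0 on the log2 scale. Such scalings are made to hold most genes near 0, so this median is no separate check of the fall.

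Counts over all genes moved more. Lower and higher calls were 934 and 309 without a filter, 830 and 279 with DESeq2, 1283 and 597 with the replicate block, 1236 and 518 with DESeq2 and the block, and 1246 and 646 with the block and nuclear scaling. Leaving out both libraries of numbers 1 to 4 with the block gave 1126 and 455, 1050 and 500, 851 and 331, and 1017 and 431. Leaving out 1 library gave 339 (without YFP+ 3) to 521 lower and 88 (without YFP+ 3) to 156 higher. Among the machinery genes, lower calls were 3 without a filter, 4 with the block, 3 with DESeq2 and the block, 4 with the block and nuclear scaling, 0 to 1 without 1 library, and 5, 3, 1 and 3 with the block and numbers 1 to 4 left out in turn. Higher calls were 1 with the block, with or without nuclear scaling, and 2 and 1 with numbers 1 and 4 left out.

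Some estimates changed sign. None of these genes had been called in the fit without the block, and 1 of them passed under an alternative: Lars2 was 0.44 with the block and number 1 left out (edgeR adjusted p = 0.0142). Lrpprc was -0.0078 with a filter of 1 CPM, -0.0020 with limma-voom and -0.00040 with the block, and Tfam 0.00026 with nuclear scaling. With the block and number 1 left out, mt-Tf was 0.068, mt-Tv 0.11 and mt-Tl1 0.030. Without number 2, Lrpprc was -0.023 and Polg -0.068. Without number 3, mt-Tv was 0.074, mt-Tm 0.18, Lrpprc -0.0012 and Tfam 0.058. Without number 4, Lrpprc was -0.033, Lars2 -0.042 and Tfam 0.0027. Without 1 library, mt-Tf ran from -0.33 to 0.031, mt-Tv from -0.35 to 0.12, mt-Tl1 from -0.36 to 0.067, mt-Tq from -0.59 to 0.053, mt-Tm from -0.62 to 0.12, Lrpprc from -0.068 to 0.047, Lars2 from -0.016 to 0.41, Tfam from -0.072 to 0.039 and Polg from -0.069 to 0.078. The YFP+ minus YFP- difference ran from -0.000277 to 0.000153 for the tRNA percent of library counts, from -0.0165 to 0.00547 for the minus-strand percent, from -0.152 to 0.693 for the ratio of rRNA to protein-coding counts and from -0.118 to 0.0671 for mt-Rnr2 to mt-Rnr1. The cause was not tested. Summed over the 22 tRNA genes, counts were 315 to 392 in YFP- libraries against 226 to 587 in YFP+ libraries.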
